A study of Mus musculus with 12 samples.

Results

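The genes described here are the subunits of the transcription factor NF-kB and its inhibitors, followed across blood progenitors with and without Lamtor2. The list held 10 genes: the subunits Rel, Rela, Relb, Nfkb1 and Nfkb2, and, listed as inhibitors, Nfkbia, Nfkbie, Tnfaip3, Tnip1 and Tnip3. A gene was taken as measured where a probe set of the value table carried its symbol and no other. This gave 9 probe sets for 9 of the 10 genes, among 19937 genes in all, and each of the 9 had a single probe set. Nfkb1 was not analysed here.

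NF-kB is a family of dimers that IkB proteins hold in the cytoplasm. When receptors for TNF, IL-1 or microbial products activate the IKK kinases, the IkB proteins are degraded and the dimers enter the nucleus. Several inhibitors of the pathway are themselves NF-kB targets, which makes a negative feedback. In blood progenitors and macrophages the pathway is known for inflammatory gene expression and for survival signals.

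RNA was measured on 12 arrays in 4 groups of 3, from 2 sorted populations of mouse bone marrow. The LSK gate takes lineage-negative cells with Sca1 and c-Kit, which include stem cells and multipotent progenitors. The GMP gate takes granulocyte and macrophage progenitors, which lack lineage markers and Sca1 and carry c-Kit, CD34 and FcγR. The protocol text gives the KO mice (C57BL/6J) as Mx-Cre Lamtor2f/f and the WT mice, of the same strain, as Mx-Cre with wild-type Lamtor2. The strain labels instead read Mx1-Cre wt/wt for both, which taken literally would mean no Cre, so that the WT mice carried Cre is not settled by the labels. Both genotypes received pIpC and cells were sorted at day 14. The Mx1 promoter that drives this Cre responds to interferon and is not restricted to blood cells. pIpC itself evokes interferon, in WT mice as well as in KO mice. The labels state neither age nor sex, nor whether LSK and GMP arrays with the same number came from the same mouse. Lamtor2 encodes a subunit of Ragulator, the lysosomal scaffold that recruits mTORC1 through the Rag GTPases and that also anchors MEK and ERK.

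Lamtor2 read 4.95 to 5.77 in the 6 KO arrays and 10.31 to 10.82 in the 6 WT arrays (RMA values, on the log2 scale, as all levels below). Of 12 measured LSK and stem cell markers, 12 were higher in WT LSK than in WT GMP, and 10 of 10 GMP markers were lower, so the gates differed as labelled. Array medians lay between 5.96 and 6.18. The array of GMP KO replicate 1 was the least alike within a group, at a mean Pearson r of 0.979 over genes to its fellow replicates, and limma gave it a weight of 0.19. Each comparison touching GMP KO was therefore also run without it. In bulk samples of this kind, a different share of cells of a type and a different amount of RNA per cell cannot be told apart. Levels are comparable between groups for the same gene and not between genes, since each probe set has its own brightness.

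The promoters of the 4 members that changed after Lamtor2 loss are shown first. Binding sites for NF-kB (kB sites) in promoters of the inhibitors are the known route of the feedback. Rel is a subunit and not an inhibitor, and Tnip3 fell in KO LSK. Binding and activity of NF-kB were not measured, and a part of the feedback in any of these changes was not tested. Each sequence (RefSeq, GRCm38.p6) runs 5′ to 3′ on the strand of the gene, from 250 bases before its start to 50 after it, and capitals mark matches to the 10-base kB consensus motif of NF-kB, which opens with GGG and closes with CC, on either strand. Overlapping matches run together in capitals.
Rel (chr11:23770920-23771219, minus strand): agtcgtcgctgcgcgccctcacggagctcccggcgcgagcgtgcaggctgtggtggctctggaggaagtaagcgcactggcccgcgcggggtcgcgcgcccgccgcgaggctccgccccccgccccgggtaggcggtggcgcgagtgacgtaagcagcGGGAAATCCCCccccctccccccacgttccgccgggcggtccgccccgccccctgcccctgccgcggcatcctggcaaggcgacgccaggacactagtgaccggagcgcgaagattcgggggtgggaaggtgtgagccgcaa
Nfkbia (chr12:55492598-55492897, minus strand): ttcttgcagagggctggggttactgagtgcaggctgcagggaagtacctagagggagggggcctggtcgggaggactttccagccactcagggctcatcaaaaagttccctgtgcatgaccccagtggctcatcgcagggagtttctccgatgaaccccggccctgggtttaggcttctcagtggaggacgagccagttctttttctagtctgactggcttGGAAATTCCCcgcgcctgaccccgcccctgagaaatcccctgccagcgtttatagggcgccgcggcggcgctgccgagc
Tnfaip3 (chr10:19015361-19015660, minus strand): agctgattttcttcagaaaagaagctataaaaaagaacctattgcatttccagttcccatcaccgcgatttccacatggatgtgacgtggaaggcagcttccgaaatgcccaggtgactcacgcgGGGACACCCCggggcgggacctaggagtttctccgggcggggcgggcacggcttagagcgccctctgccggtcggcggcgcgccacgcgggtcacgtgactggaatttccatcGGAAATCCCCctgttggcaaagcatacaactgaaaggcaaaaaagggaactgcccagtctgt
Tnip3 (chr6:65590148-65590447, plus strand): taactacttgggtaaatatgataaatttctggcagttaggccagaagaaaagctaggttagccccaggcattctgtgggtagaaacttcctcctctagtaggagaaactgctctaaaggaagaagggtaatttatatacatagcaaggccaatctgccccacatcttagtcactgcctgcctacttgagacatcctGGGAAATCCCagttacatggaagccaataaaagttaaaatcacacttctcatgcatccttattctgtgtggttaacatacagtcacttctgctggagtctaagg
The Rel window held 2 overlapping matches, 92 and 91 bases before the start, spelled GGGAAATCCC and GGAAATCCCC. The Nfkbia window held GGAAATTCCC, 29 bases before the start. The Tnfaip3 window held 2 matches, GGGACACCCC and GGAAATCCCC, and the window at its other annotated start held 0. The Tnip3 window held GGGAAATCCC, 54 bases before the start, the same letters as the first match of Rel. Of 8 members with a window, 7 had a match in at least 1 window: these were the 4 shown, Nfkb2, Nfkbie and Tnip1. Rela had none and Relb had no window. Among all 32851 promoter windows 8.46% had a match, and 9.55% of genes had one in at least 1 of their windows. Members that passed the test after Lamtor2 loss and members that did not, such as Tnip1 with 3 overlapping matches, both carried the motif. A match describes letters and is not a measured binding site.

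In KO LSK, Rel rose and Tnip3 fell. Of the 9 members, these 2 passed the test in LSK, 1 higher and 1 lower (adjusted p under 0.05 from limma over all genes), where 4.44% of all genes passed, 2.49% higher and 1.96% lower. In KO GMP, Rel, Nfkbia and Tnfaip3 rose, and 0 members passed as lower by limma (0 also at an unadjusted p under 0.05). These 3 of 9 stand beside the 16.1% of all genes that passed in GMP, 5.78% higher and 10.3% lower. Of the calls over all genes in GMP 35.9% were higher, which became 45.7% when quantile normalisation was repeated and 24.7% with arrays centred on their median. The median difference of the 9 members was -0.12 in LSK and 0.25 in GMP (KO minus WT, log2), beside -0.01 and 0.01 over all genes. With 9 genes such shares are counts of named genes and say nothing particular about the group. The KO and WT arrays did not overlap for 6 of the 9 members in LSK and for 6 of 9 in GMP, where 25.5% and 29.6% of all genes did not overlap. Rel was the member that passed in both gates.

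**Figure D1:**
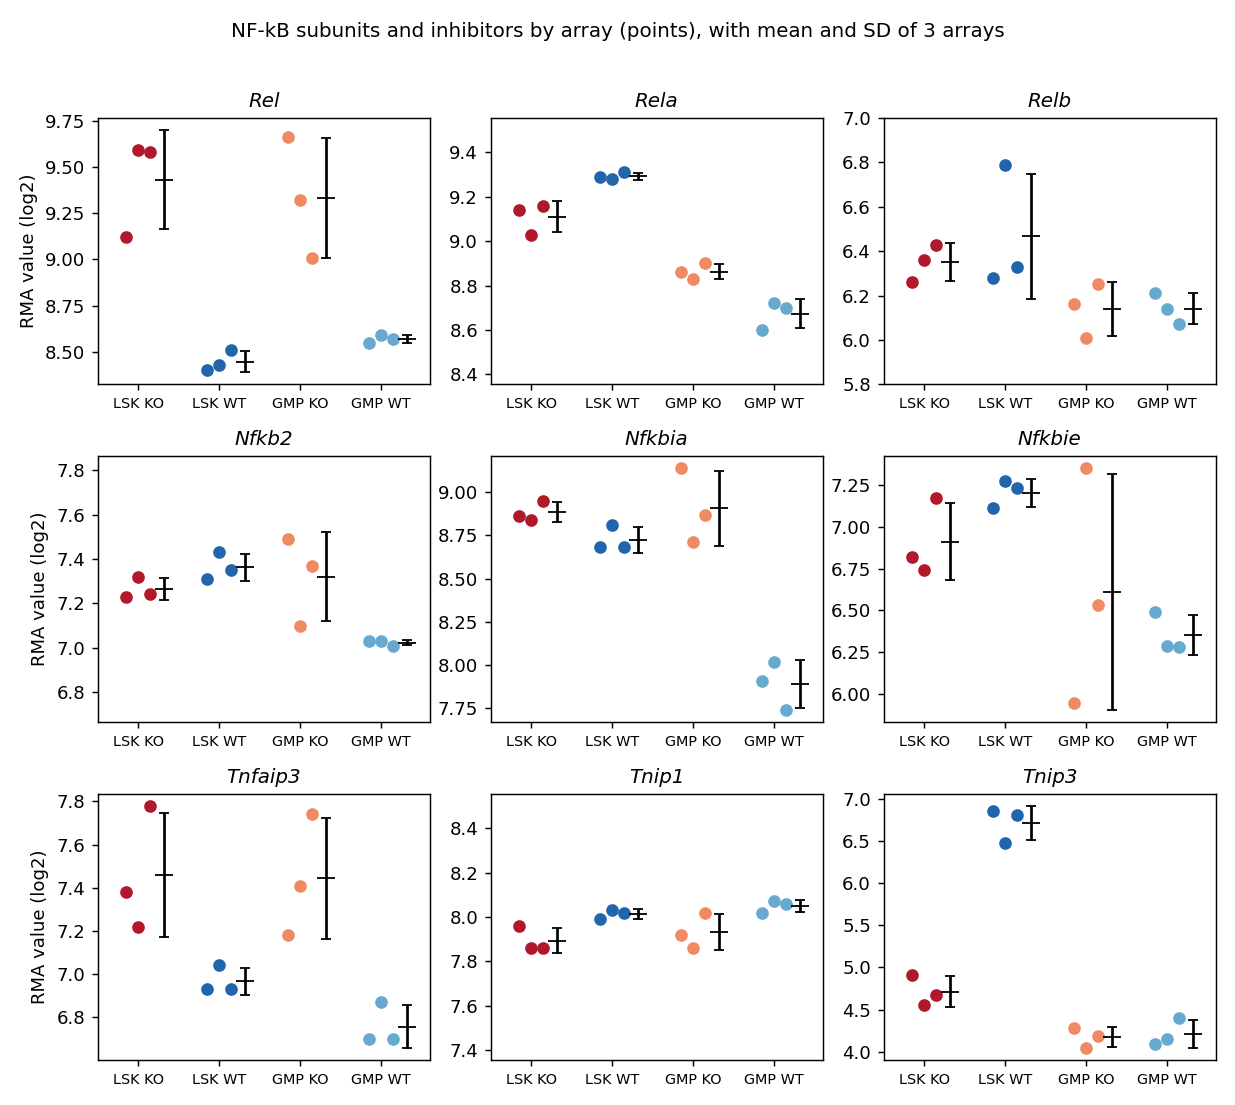
RMA values (log2, y axis, range differing between panels) of the 9 measured members in the 4 groups, 1 point per array, with the mean and SD of 3 arrays beside the points. Rel is higher in both KO groups, Nfkbia is low in GMP WT (7.74 to 8.02), and Tnip3 is high in LSK WT (6.48 to 6.85).

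Rel (probe set 10384725) encodes c-Rel, a subunit with a transactivation domain that acts mainly in blood cells. It read 9.12, 9.59 and 9.58 in LSK KO, against 8.40, 8.43 and 8.51 in LSK WT. It read 9.66, 9.32 and 9.01 in GMP KO, against 8.55, 8.59 and 8.57 in GMP WT. Every KO array lay above every WT array, in both gates. The mean was 9.43 ± 0.27 in LSK KO and 8.45 ± 0.06 in LSK WT (SD, n = 3 each), a difference of 0.98 (95% interval 0.65 to 1.32, adjusted p = 0.0026) or 1.98-fold. In GMP the mean was 9.33 ± 0.32 in KO and 8.57 ± 0.02 in WT (SD, n = 3 each), a difference of 0.76 (0.43 to 1.10, adjusted p = 0.00478) or 1.69-fold. The KO arrays spread more than the WT arrays in both gates, and in GMP the highest was replicate 1, the array that stood apart. Without it the difference was 0.60, and the call was kept, as it was without any other single array. The effects in LSK and GMP differed by 0.22 (-0.25 to 0.70, adjusted p = 0.615), an interval that allows a larger effect in either gate. Rel did not pass between gates, at -0.12 in WT (LSK minus GMP, adjusted p = 0.69) and 0.10 in KO (adjusted p = 0.672).

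Rela (10460631) encodes p65, the transactivating subunit of the classical dimer. It read 9.14, 9.03 and 9.16 in LSK KO, against 9.29, 9.28 and 9.31 in LSK WT. KO GMP had 8.86, 8.83 and 8.90, and WT GMP had 8.60, 8.72 and 8.70. The KO arrays thus lay below WT in LSK and above WT in GMP, with no overlap in either gate. Both differences were small, -0.19 in LSK (-0.36 to -0.01, adjusted p = 0.27) and 0.19 in GMP (0.01 to 0.37, adjusted p = 0.142), and neither passed. The difference between these effects was -0.38 (-0.63 to -0.13) and missed the threshold at adjusted p = 0.0625. It passed in 3 alternatives, with an adjusted p of 0.0121 when quantile normalisation was repeated, of 0.0443 when the dimmest 30% of genes were left out and of 0.0367 with array weights. In the quantile alternative the GMP difference itself was 0.32 and passed (adjusted p = 0.0151). Ordered by mean, Rela was highest in LSK WT (9.29 ± 0.02), then in LSK KO (9.11 ± 0.07), GMP KO (8.87 ± 0.03) and GMP WT (8.67 ± 0.07; SD, n = 3 each), and of neighbours in that order none passed the test. LSK KO against GMP KO, at 0.24, passed when the dimmest genes were left out (adjusted p = 0.0468, against 0.0632).

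Relb (10560575) and Nfkb2 (10463599) encode the pair of the non-canonical pathway, RelB and p100, the precursor of p52. Relb read 6.26 to 6.43 in LSK KO and 6.28 to 6.79 in LSK WT, and 6.01 to 6.25 in GMP KO and 6.07 to 6.21 in GMP WT. The groups overlapped in both gates, with differences of -0.12 (-0.40 to 0.16) in LSK and -0.00 (-0.28 to 0.28) in GMP. Nfkb2 read 7.23, 7.32 and 7.24 in LSK KO, against 7.31, 7.43 and 7.35 in LSK WT, a difference of -0.10 (adjusted p = 0.746). KO GMP had 7.49, 7.10 and 7.37, and WT GMP had 7.03, 7.03 and 7.01. The GMP KO arrays were all above WT, but the difference of 0.29 (0.07 to 0.51) missed the threshold (adjusted p = 0.0676). Replicate 2 was the lowest of these KO arrays, and without it the difference was 0.40 (adjusted p = 0.0104). The effects in LSK and GMP differed by -0.39 (-0.70 to -0.08, adjusted p = 0.12), and by -0.51 without the same array (adjusted p = 0.0253).

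Nfkbia (10400405) encodes IkBα, the inhibitor that is degraded first on stimulation and made anew under NF-kB control. It read 8.86, 8.84 and 8.95 in LSK KO, against 8.68, 8.81 and 8.68 in LSK WT. KO GMP had 9.14, 8.71 and 8.87, and WT GMP had 7.91, 8.02 and 7.74. The WT GMP arrays were the low group, and the other 3 groups had means between 8.72 and 8.91. In GMP the difference was 1.02 (0.77 to 1.27, adjusted p = 7.66e-05), or 2.03-fold, from means of 8.91 ± 0.22 in KO and 7.89 ± 0.14 in WT (SD, n = 3 each). In LSK it was 0.16 (-0.09 to 0.41, adjusted p = 0.602). The effect in LSK was the smaller, with a difference of -0.86 (LSK minus GMP, -1.22 to -0.51, adjusted p = 0.00779). The gates differed in WT, where LSK was 0.83 above GMP (adjusted p = 1.55e-04), and in KO the difference was -0.03 (-0.28 to 0.22, adjusted p = 0.879).

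Nfkbie (10445412) encodes IkBε, a slower acting IkB. It read 6.82, 6.74 and 7.17 in LSK KO, against 7.11, 7.27 and 7.23 in LSK WT. Its values were 5.95, 7.35 and 6.53 in KO GMP and 6.49, 6.29 and 6.28 in WT GMP. The GMP KO arrays spanned the widest range of any group of a member and lay on both sides of WT. The differences were -0.30 (-0.84 to 0.25) in LSK and 0.25 (-0.29 to 0.80) in GMP, and neither passed. The GMP value was 0.59 without GMP KO replicate 1 (adjusted p = 0.0588) and -0.12 without replicate 2 (adjusted p = 0.687). The effects differed by -0.55 (adjusted p = 0.411), and by -0.88 without GMP KO replicate 1 (adjusted p = 0.0482). Between KO gates Nfkbie differed by 0.30 (adjusted p = 0.429), and by 0.67 without GMP KO replicate 2 (adjusted p = 0.0168).

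Tnfaip3 (10368144) encodes A20, a ubiquitin-editing enzyme that restrains IKK activation. It read 7.38, 7.22 and 7.78 in LSK KO, against 6.93, 7.04 and 6.93 in LSK WT. It read 7.18, 7.41 and 7.74 in GMP KO, against 6.70, 6.87 and 6.70 in GMP WT. Each KO array exceeded each WT array of its gate. The difference passed in GMP, at 0.69 (0.36 to 1.02, adjusted p = 0.00772) or 1.61-fold, and missed the threshold in LSK, at 0.49 (0.16 to 0.82, adjusted p = 0.0971). In LSK the same difference passed without GMP KO replicate 1, which enters through the shared estimate of spread (adjusted p = 0.0387), and with array weights (adjusted p = 0.0262). The 2 effects differed by -0.20 (-0.67 to 0.27, adjusted p = 0.655).

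Tnip1 and Tnip3 encode ABIN-1 and ABIN-3, proteins of the A20-binding family. Inhibition of NF-kB by ABIN-3 is described for the human protein. Whether the mouse protein inhibits NF-kB was not measured here, so a change of Tnip3 is not read as a change of inhibition. Tnip1 (10385941) read 7.86 to 7.96 in LSK KO and 7.99 to 8.03 in LSK WT, and 7.86 to 8.02 in GMP KO and 8.02 to 8.07 in GMP WT. Its differences of -0.12 in both gates (-0.30 to 0.06 in LSK, -0.29 to 0.06 in GMP) did not pass.

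Tnip3 (10538791) had the largest effect of Lamtor2 loss among the members. It read 4.91, 4.55 and 4.67 in LSK KO, against 6.85, 6.48 and 6.81 in LSK WT. KO GMP had 4.28, 4.05 and 4.19, and WT GMP had 4.09, 4.15 and 4.40. LSK WT was thus the group with a high reading. Tnip3 fell by 2.00 in KO LSK (-2.28 to -1.72, adjusted p = 2.69e-06), or 4.01-fold, from means of 4.71 ± 0.18 in KO and 6.71 ± 0.20 in WT (SD, n = 3 each). In GMP the difference was -0.04 (-0.32 to 0.25, adjusted p = 0.896). Both GMP groups read low, so a fall in GMP may not have been measurable. The fitted difference between effects, -1.96 (-2.36 to -1.56, adjusted p = 1.82e-04), therefore does not show that the effect of Lamtor2 loss on Tnip3 differed between the gates. LSK was 2.50 above GMP in WT (adjusted p = 6.59e-08) and 0.54 above GMP in KO (adjusted p = 0.014). Without LSK KO replicate 1 the KO difference was 0.44 and missed the threshold (adjusted p = 0.0626). The files hold no detection calls. Lamtor2, deleted in KO mice, still read 4.95 or more there, so low readings need not be transcript, and the fold of Tnip3 in LSK can understate its change.

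**Figure D2:**
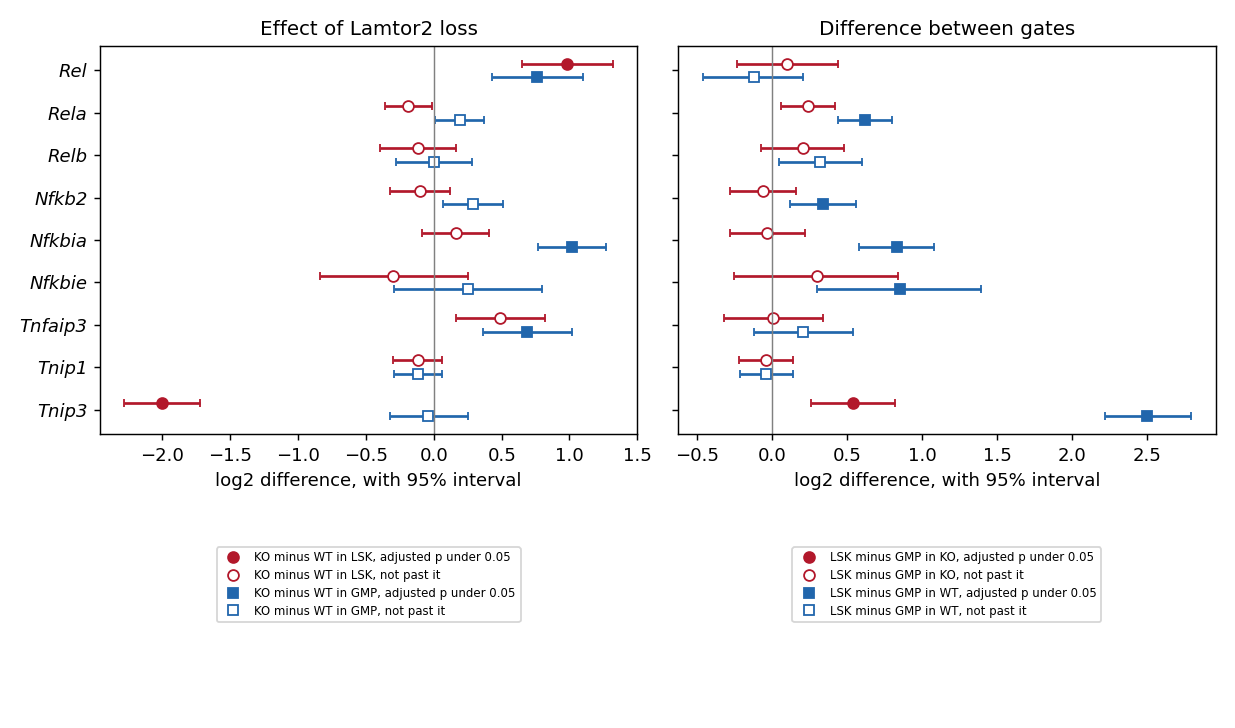
Differences of the 9 members on the log2 scale with 95% intervals (x axis): KO minus WT in each gate on the left, LSK minus GMP in each genotype on the right. Filled symbols passed an adjusted p of 0.05. Rel is to the right of 0 in both gates, Nfkbia in GMP at 1.02, and Tnip3 is to the left in LSK.

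Between gates, 5 of 9 members were higher in WT LSK than in WT GMP, and 0 passed as lower by limma (0 also at an unadjusted p under 0.05): Rela (0.62), Nfkb2 (0.34), Nfkbia (0.83), Nfkbie (0.85) and Tnip3 (2.50). Of all genes 19.6% passed in that comparison, 10.3% higher and 9.32% lower, and the share of higher calls was 52.4%, against 34.3% with centred arrays. The calls of Nfkb2 and Nfkbie ended when any single one of the 6 WT arrays was left out (highest adjusted p = 0.114 for Nfkb2 and 0.0929 for Nfkbie), which left 3 members, as repeating the quantile normalisation or centring did. The WT arrays of the gates did not overlap for 8 of 9 members, where 40.6% of all genes did not. With KO cells in both gates 1 of 9 members passed, Tnip3, as higher in LSK, where 15.8% of all genes passed, 10.1% higher and 5.79% lower. The KO arrays of the gates did not overlap for 3 of 9 members, beside 31.5% of all genes. The member differences in KO had a median of 0.10, against 0.34 in WT. The change of the gate difference with genotype was the tested interaction, which 2 of 9 members passed, Nfkbia and Tnip3, both with negative values (LSK minus GMP; that of Tnip3 rests on low GMP readings), beside 7.98% of all genes, 5.34% higher and 2.64% lower. Of those calls over all genes 66.9% were higher, and 54.0% or 80.7% with repeated quantile normalisation or centred arrays.

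Other genes of the pathway were taken from 5 lists written from general knowledge. The lists were chosen with earlier results of these data known, so their counts and medians are a description and not an independent test. Of 23 measured receptors that feed NF-kB, 9 rose and 1 fell in KO GMP (median 0.46). In KO LSK 4 rose and 1 fell (median 0.14). Over all genes 5.78% were higher and 10.3% lower in GMP, and 2.49% higher and 1.96% lower in LSK, with medians of 0.01 and -0.01, and these shares also apply to the lists below. Tlr7, a receptor for single-stranded RNA in endosomes, read 7.26, 8.21 and 8.52 in GMP KO, against 4.63, 4.30 and 4.61 in GMP WT, and rose by 3.49 (adjusted p = 5.32e-06). Tlr13, an endosomal receptor for bacterial ribosomal RNA, rose by 3.61 in GMP (adjusted p = 5.10e-05) and by 1.91 in LSK (adjusted p = 0.0129). Cd180, a Toll-like receptor homologue, rose in both gates, by 1.27 in GMP (adjusted p = 4.60e-05) and 0.75 in LSK (adjusted p = 0.00629). Ly96, the MD-2 partner of Tlr4, rose by 1.97 in GMP (adjusted p = 1.80e-04). Tnfrsf1b, a TNF receptor, rose by 0.46 in LSK (adjusted p = 0.0118), and Il18r1, a chain of the IL-18 receptor, fell by 1.04 there (adjusted p = 0.00743). The Tnfrsf1b call in LSK ended without LSK KO replicate 2 or 3 or LSK WT replicate 3, and that of Tlr13 without LSK WT replicate 2. The count of higher receptors in LSK was 2 without LSK KO replicate 2 or 3 or LSK WT replicate 2 or 3, and 7 without GMP KO replicate 1. It was 7 with array weights and 8 when the LSK arrays alone were fitted.

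Of 11 measured ligands, 4 rose in KO GMP and 0 passed as lower (0 at an unadjusted p under 0.05), and in KO LSK 1 fell and 0 passed as higher by limma (2 unadjusted). The median was 0.11 in GMP and -0.07 in LSK. Tnf, which signals to NF-kB through its receptors, read 7.68, 7.82 and 7.77 in GMP KO, against 6.98, 7.25 and 7.16 in GMP WT, and rose by 0.63 (adjusted p = 0.0131). Il18 rose by 1.14 (adjusted p = 0.00518) and Il1a by 1.86 (adjusted p = 0.00931) in GMP. Il1a read 4.69, 5.63 and 7.10 in GMP KO, against 3.96, 4.02 and 3.86 in GMP WT, so its KO arrays differed widely. Lta rose by 0.37 in GMP (adjusted p = 0.0382), a call that ended in 12 of the 21 alternatives. The Tnf call ended without GMP WT replicate 1 (adjusted p = 0.0606). Ltb, a subunit of the ligand of the lymphotoxin β receptor, which acts through the non-canonical pathway, fell by 1.48 in LSK (adjusted p = 0.00783), with 7.11, 7.44 and 7.12 in KO, against 8.55, 8.84 and 8.71 in WT.

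Of 30 measured IKK kinases and adaptors, 1 was higher and 0 were lower in KO LSK by limma (2 lower at an unadjusted p under 0.05, median 0.02), and 2 were higher and 3 lower in KO GMP (median -0.09). The called shares, 3.33% in LSK and 16.7% in GMP, were near the 4.44% and 16.1% of all genes. Malt1, the protease of the CARD-BCL10-MALT1 complex, was higher in both gates, by 0.61 in LSK (adjusted p = 0.00945) and 0.49 in GMP (adjusted p = 0.0118). Without LSK WT replicate 1 or 2 its adjusted p in LSK was 0.052 and 0.0538. In GMP the kinase Irak2 rose by 0.63 (adjusted p = 0.00242), while the ubiquitin-conjugating Ube2n fell by 0.81 (adjusted p = 0.00699) and the adaptor Tradd by 0.43 (adjusted p = 0.0272). The count of lower genes in GMP was 1 when the GMP arrays alone were fitted. It was 1 without GMP KO replicate 1, GMP WT replicate 2 or GMP WT replicate 3, and 5 without GMP KO replicate 3. The Tradd call ended without any of the first 3 of these arrays. It also ended with the GMP arrays alone (adjusted p = 0.0972) and with array weights (adjusted p = 0.0695). Of 18 other IkB proteins and inhibitors, 0 passed in LSK by limma (2 at an unadjusted p under 0.05, 1 in each direction, median 0.02), and in GMP 3 rose and 3 fell (median -0.01). The atypical IkB proteins Nfkbiz (1.00, adjusted p = 0.0157) and Nfkbid (0.58, adjusted p = 0.0344) were higher, and the A20 partner Tax1bp1 (-0.52, adjusted p = 0.0016) and N4bp1 (-0.56, adjusted p = 0.00763) were lower. The Nfkbiz call ended without GMP WT replicate 2, and the Nfkbid call without GMP KO replicate 2 or 3 or GMP WT replicate 2 or 3. The Nfkbid call also ended with centred arrays (adjusted p = 0.0657) and with the GMP arrays alone (adjusted p = 0.0594). The count of higher genes in this list was 0 without GMP WT replicate 2, and 1 without GMP KO replicate 2 or GMP WT replicate 3, with centred arrays or with the GMP arrays alone.

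Of 32 measured genes known as NF-kB targets, 14 rose in KO GMP (median 0.58) and 7 in KO LSK (median 0.31), and 0 passed as lower in either gate by limma (2 in GMP and 1 in LSK at an unadjusted p under 0.05). Over all genes 5.78% were higher in GMP and 2.49% in LSK, with medians of 0.01 and -0.01. The chemokine Ccl3 read 10.23, 10.58 and 11.50 in LSK KO, against 8.01, 8.23 and 7.78 in LSK WT. It read 10.89, 10.28 and 11.12 in GMP KO, against 6.11, 6.00 and 5.56 in GMP WT. Readings in KO overlapped between the gates, and LSK WT lay above GMP WT. Ccl2 rose by 1.67 in LSK (adjusted p = 0.0011) and 2.94 in GMP (adjusted p = 4.35e-06). Ier3, an early response gene (2.02), and the activation marker Cd83 (2.23) rose in GMP, each at adjusted p = 5.32e-06. In LSK, Csf1, the macrophage growth factor (0.95, adjusted p = 0.0137), and Myc (0.44, adjusted p = 0.016) rose as well. The count of 7 in LSK was 3 when a single array was left out among replicates 2 and 3 of KO LSK and replicates 1 and 3 of WT LSK, and it was 4 when LSK WT replicate 2 was left out. The Csf1 call ended when LSK KO replicate 2, or replicate 1 of LSK WT, was left out, and the Myc call without LSK KO replicate 1 or 3 or LSK WT replicate 2 or 3. The count of 14 in GMP lay between 10 and 15 when any single array was left out.

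**Figure D3:**
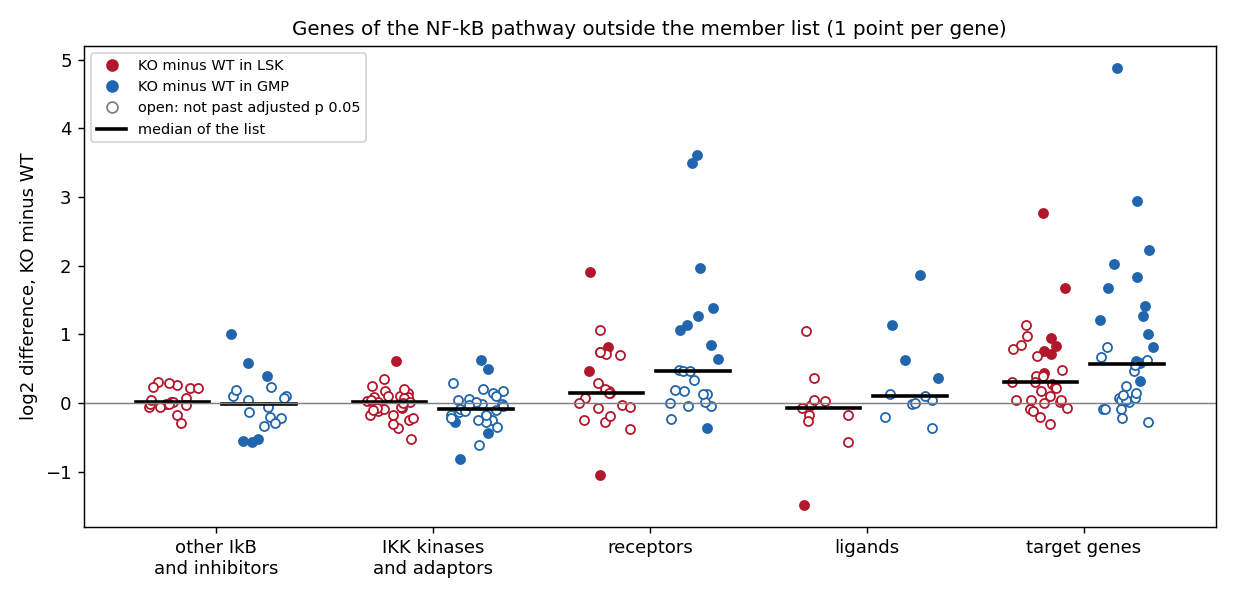
Differences between KO and WT (log2, y axis) of the pathway genes outside the member list, 1 point per gene, for LSK (left of each pair) and GMP. Filled points passed an adjusted p of 0.05 and the bar is the median of the list, 0.31 in LSK and 0.58 in GMP for target genes.

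Some markers of macrophages, which use NF-kB and its targets strongly, also rose in KO cells. Of 19 measured macrophage markers, 7 rose in KO LSK and 10 in KO GMP, and 0 passed as lower by limma (0 in LSK and 1 in GMP at an unadjusted p under 0.05). Their mean read 6.46, 7.28 and 6.68 in LSK KO, against 5.52 to 5.76 in LSK WT, and 7.71, 7.94 and 8.18 in GMP KO, against 6.00 to 6.13 in GMP WT. Cd68 (2.27 in LSK, 2.87 in GMP) and C1qc (2.20 and 4.83) rose, whereas Adgre1, a classical surface marker of mouse macrophages, did not pass in either gate (0.70 with adjusted p = 0.153 in LSK, 0.56 with adjusted p = 0.16 in GMP). Nor did Cd163, Timd4, Cd5l, Fcgr1, Vcam1 or Marco, with differences of -0.35 to 0.25. Csf1r (0.90 in LSK, -0.09 in GMP) and Slc40a1 (0.79 in LSK, 0.99 in GMP) did not pass either. The largest rise was that of Gpnmb (6.41 in LSK, 7.20 in GMP), which also enters the mean above. At or under the highest KO reading of Lamtor2 (5.77) were 3 to 8 of the 19 markers in LSK KO arrays and 9 to 11 in LSK WT, and 2 or 3 in GMP KO and 6 to 9 in GMP WT. Of 9 monocyte markers 5 rose in KO LSK, while 2 rose and 3 fell in KO GMP, and of mast cell and basophil markers 4 of 8 rose in LSK and 3 of 8 in GMP. Of GMP markers 5 of 10 rose in KO LSK, and of LSK and stem cell markers 3 of 12 fell there. Of megakaryocyte markers 2 of 6 fell in KO LSK, Ppbp by 1.35 (adjusted p = 0.00101) and Pf4 by 2.33 (adjusted p = 0.0497). Like Tnip3, 12 of 12 LSK and stem cell markers and 4 of 6 megakaryocyte markers were higher in WT LSK than in WT GMP. In KO GMP 1 of the 6 rose and 1 fell. Their mean read 6.55 to 6.82 in LSK KO and 7.18 to 7.71 in LSK WT, and 6.23 to 6.74 in GMP KO and 6.27 to 6.55 in GMP WT. Within GMP KO, the array with the highest Rel (9.66) had the lowest macrophage mean (7.71), and it was replicate 1, the array that stood apart. Within LSK KO the array with the lowest Rel (9.12) had the lowest macrophage mean (6.46). Tnfaip3 in GMP KO ran in the same order as the macrophage mean, and in LSK KO it did not. Such orders of 3 arrays are a description and were not tested. Of 10 neutrophil markers 1 fell in KO GMP by limma, and 0 passed in KO LSK (1 lower at an unadjusted p under 0.05). Their mean varied within groups, at 9.26, 7.93 and 7.61 in GMP KO and 9.49, 7.70 and 8.59 in GMP WT. It read 7.37, 8.96 and 7.73 in LSK KO and 9.19, 7.81 and 7.38 in LSK WT. The part of these cell types in the changes of Rel, Nfkbia, Tnfaip3, Tnip3 and the pathway genes was not tested.

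**Figure D4:**
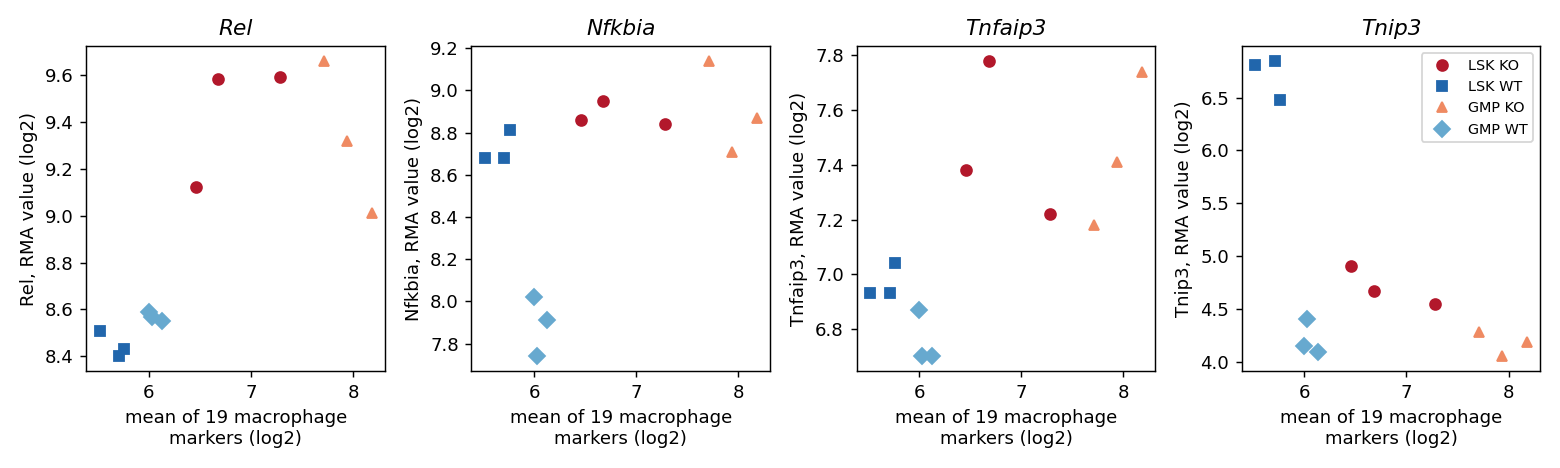
RMA values (log2, y axis) of Rel, Nfkbia, Tnfaip3 and Tnip3 against the mean of 19 macrophage markers (log2, x axis), 1 point per array in 4 groups. KO arrays lie to the right of the WT arrays of their gate. The order of the arrays within a group was not tested.

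The genes whose levels ran most like each changed member over the 12 arrays were listed as a description. For Rel they were Ceacam16 (Pearson r = 0.947), Fbxo30 (0.941) and Acap2 (0.936). For Nfkbia they were Cyp4f13 (0.968), Tsc22d3 (0.965) and Mpzl1 (0.963). For Tnfaip3 they were Car13 (0.972), Plk3 (0.965) and Shcbp1l (0.958). For Tnip3 they were Tead2 (0.975), Raver2 (0.973) and Gucy1a1 (0.970). The 12 arrays fall into 4 groups, so the arrays behind each r share group means as well as a scale.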

How the data were processed

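RNA from sorted LSK and GMP cells was amplified, biotin-labelled and hybridised to 12 Affymetrix arrays, per the labels' protocols. The authors deposited log2 values processed with RMA, per the submitters' processing notes, without a software version. The files hold no detection calls and name no genome build. Of 34760 probe sets, 22961 were in the annotation used, 21640 with a single symbol and 1321 with several, which were not named. Of the single-symbol probe sets 21553 were updated through their gene identifier to RefSeq, which gave 19937 genes. The brightest probe set stood for a gene with several (954 genes).

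limma 3.58.1 (R 4.3.3) fitted the 4 group means on all 12 arrays with eBayes (8 residual and 5.16 prior degrees of freedom), and p-values were two-sided and Benjamini-Hochberg adjusted over all genes, with a threshold of 0.05. An exact permutation test of 3 arrays against 3 cannot go below p = 0.1. The fit was tested on simulated data with the same spread of a gene in all groups. That test does not cover the wider spread of the GMP KO arrays. Their root mean square deviation from the group mean was 0.178 to 0.270, against 0.108 to 0.146 in the other groups. Nothing states which arrays share a mouse, so p-values measure the spread between these arrays, and the number of arrays limits the precision. The main fit used no block. Between groups, the deviations of arrays with the same replicate number had correlations of -0.23 to 0.28. For LSK and GMP arrays of the same genotype, which alone could share a mouse, these were -0.18 to 0.18. Named pathway genes were at most 4 per list and gate, those with the smallest adjusted p. The members and lists were chosen with earlier results of these data known. Normalisation, centring, a filter on dim genes, probe set averaging, variance moderation, array weights, the arrays fitted, replicate blocks and each array left out were tried as alternatives.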

Additional observations from a re-analysis of the deposited data

Results flagged for a closer look

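The test of whether the effect of Lamtor2 loss differed between LSK and GMP, the interaction term of the limma fit, passed for 2 members and for 11 of 25 named pathway genes, which were named for a small adjusted p in a gate. Over all genes 7.98% passed this test, 5.34% higher and 2.64% lower. Over all 114 measured pathway genes 3 passed as higher and 16 as lower, and the higher ones outside the named genes were Tnfrsf1a (0.49, adjusted p = 0.0254) and Sod2 (0.48, adjusted p = 0.0289). Each value is the effect in LSK minus that in GMP on the log2 scale. Among members it was -0.86 for Nfkbia (adjusted p = 0.00779) and -1.96 for Tnip3 (adjusted p = 1.82e-04). Tnip3 read low in both GMP groups, 4.05 to 4.28 in KO and 4.09 to 4.40 in WT, so a fall there may not have been measurable and its value does not show that the gates differed. Among target genes it was -1.26 for Ccl2 (adjusted p = 0.0332), -2.11 for Ccl3 (adjusted p = 0.00825), -1.47 for Cd83 (adjusted p = 0.00532) and -1.72 for Ier3 (adjusted p = 0.0015). Among ligands it was -1.71 for Il18 (adjusted p = 0.00903), -0.55 for Lta (adjusted p = 0.0489) and -1.61 for Ltb (adjusted p = 0.0251). Among receptors it was -1.50 for Il18r1 (adjusted p = 0.00652), -1.23 for Ly96 (adjusted p = 0.0497) and -2.43 for Tlr7 (adjusted p = 0.00419). For the inhibitor Tax1bp1 it was 0.60 (adjusted p = 0.0121). Il18r1 read 4.75 to 5.04 in GMP WT and 4.97 to 5.81 in GMP KO, near the 4.95 to 5.77 of deleted Lamtor2. A fall in GMP may thus not have been measurable, and the Il18r1 value does not show that the gates differed. Lta read 5.04 to 5.76 over all arrays, within the range of deleted Lamtor2. Ltb read 6.18 to 6.41 in GMP WT and 5.71 to 7.26 in GMP KO. A fall in GMP as large as that of Ltb in LSK may thus not have been fully measurable. The calls of Lta, Ltb, Ly96 and Ccl2 ended when single arrays were left out, with adjusted p up to 0.129, 0.0697, 0.121 and 0.0794. That of Ccl2 ended without any single array except GMP KO replicate 1. Repeated quantile normalisation ended the calls of Lta (adjusted p = 0.0804), Ltb (0.0526) and Ly96 (0.0751). Centring and the replicate block as a fixed term each ended those of Lta and Ly96. Ly96 also missed the threshold with the other variance moderation (adjusted p = 0.0596).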

How the results depend on the processing

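The calls of Rel in both gates, of Nfkbia and Tnfaip3 in GMP and of Tnip3 in LSK held in every alternative that gave a value; Tnip3 gave none in LSK when the dimmest 30% of genes were left out, so that 1 member remained called. Members called in WT LSK against WT GMP were 3 with quantile normalisation repeated and 3 with centred arrays. With the replicate block as a fixed term the Nfkb2 call there ended (0.34, adjusted p = 0.053), and no other member call changed; with the animal as a random block the correlation was -0.000. Genes called in LSK were 1734 with array weights and 1390 with the LSK arrays alone, against 886; with only the compared arrays they were 1778 in GMP and 1327 in KO LSK against KO GMP. Leaving out each array gave 2 to 3 called members in LSK, 3 to 4 in GMP, 2 to 3 for the interaction, 3 to 5 between WT gates and 0 to 2 between KO gates. All genes called then ranged over 455 to 1672, 1853 to 3628, 800 to 2006, 2980 to 5100 and 1667 to 4044 in the same order. Signs turned only for members not called. They were 0.00 for Relb in GMP and 0.04 for Nfkbia between KO gates with array weights, 0.09 for the Tnip1 interaction with centred arrays, -0.00 for Rel and -0.10 for Tnfaip3 between KO gates with repeated quantiles, and -0.12 for Tnfaip3 there with array weights. Leaving out arrays gave -0.21 to 0.04 (Relb, LSK and interaction), -0.06 to 0.06 (Relb, GMP), -0.12 to 0.59 (Nfkbie, GMP), -0.10 to 0.06 (Tnip3, GMP) and -0.04 to 0.04 (Tnip1 interaction). Between KO gates it gave -0.06 to 0.27 (Rel), -0.17 to 0.03 (Nfkb2), -0.13 to 0.09 (Nfkbia), -0.03 to 0.67 (Nfkbie), -0.15 to 0.16 (Tnfaip3) and -0.08 to 0.00 (Tnip1). Beyond the fewer arrays or genes in a fit, the cause was not tested. Readings near those of deleted Lamtor2 limit Tnip3 in particular.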
